A study of Mus musculus with 9 samples.

Results

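The genes described here encode 10 integrin chains of leukocytes. They comprise Itgae, the αE chain known as CD103, with the other alpha chains Itgav (αV), Itgax (αX, CD11c), Itgam (αM, CD11b), Itgal (αL, CD11a) and Itga4 (α4), and the beta chains Itgb7, Itgb8, Itgb2 (CD18) and Itgb1 (CD29). They were chosen by gene symbol, and all 10 were found, each in 1 row, among the 45535 rows of the table that carry a symbol. The RNA came from lung cells of C57/BL6j mice, taken 7 days into treatment with bleomycin, which injures the lung and leads to scarring. After collagenase digestion of the lungs, dendritic cells positive for CD103 were collected on magnetic beads. The before-culture group is 5 libraries made directly from such cells, and the after-culture group is 4 libraries from cells kept ex vivo for 18 h in RPMI medium with 10% serum and 1% penicillin and streptomycin. Every library is therefore from bleomycin-treated lung, with neither an untreated nor an uncultured 18 h control in this comparison. The sources used here do not say how many mice went into a library, so p-values measure the spread between these samples.

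An integrin is a cell surface receptor made of 1 alpha and 1 beta chain, which binds cell-surface or matrix ligands on the outside and the actin cytoskeleton through talin and kindlin on the inside. A chain reaches the surface only with a partner: αE pairs with β7, α4 with β7 or β1, αV with β8, β1 and other beta chains, and αL, αM and αX each pair with β2. In dendritic cells αEβ7 binds E-cadherin on epithelium and marks type 1 conventional dendritic cells (cDC1) of the lung, αXβ2 is the general CD11c marker, αLβ2 (LFA-1) binds ICAM on T cells, and αVβ8 releases active TGF-β from its latent complex.

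Values are normalized read counts, whole reads per gene divided by 1 size factor per library, and they do not correct for gene length. The libraries held 14.7 to 35.3 M reads in rows with a symbol, and a single read (1 read) came to 0.758 to 1.79 in normalized units. Of the 18202 genes whose normalized count averaged at least 10, 68.8% passed an adjusted p of 0.05 between the groups in limma (34.2% higher and 34.6% lower after culture), and 57.3% had groups that did not overlap. All 10 markers of cDC1 on a fixed list, Xcr1 and Clec9a among them, were read in every library, at a summed normalized count of 127475 to 152523 before and 31171 to 34239 after culture. In limma 7 of them fell, Xcr1 from 5836 ± 781 (SD, n = 5) to 114 ± 32.5 (SD, n = 4) and Clec9a from 2756 ± 286 to 315 ± 27.8, and 3 rose. Transcripts of other cells that carry these integrins were present too. T cell markers (14 genes) summed to 11134 to 13702 before and 9585 to 13104 after culture, with Cd3e at 1317 to 1543 and 1320 to 1780. Monocyte and interstitial macrophage markers (10 genes) summed to 37413 to 65744 and 22077 to 46140, with C1qa at 2158 to 6130 and 800 to 3240. Neutrophil markers (8 genes) summed to 13106 to 22538 and 6905 to 14831, with S100a9 at 1062 to 2929 before and 0 to 12.9 after culture. Of the 7 neutrophil markers tested 6 were lower, and the sum after culture was mostly Mmp8, the 1 that rose (315 to 553 before and 6093 to 13585 after culture). In bulk RNA, fewer cells of a type and less RNA per cell cannot be told apart.

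All 10 integrin genes were read in every library, at no less than a normalized count of 122, and all 10 entered the test. After culture Itgb8, Itga4, Itgam, Itgb1, Itgb2 and Itgav were higher and Itgae, Itgb7, Itgal and Itgax were lower, so 6 rose and 4 fell at a limma adjusted p under 0.05. By that threshold 34.2% of all tested genes were higher and 34.6% lower. Groups did not overlap for 8 of the 10, beside 57.3% of all tested genes, with Itgav and Itgb2 as the exceptions. Of the 10 genes 6 changed 2-fold or more, where 32.7% of all tested genes did, and Itgae and Itgb8, 2 of the 10, changed 8-fold or more, where 4.73% did. The count at 2-fold includes Itgb7, Itgal and Itga4. These fell short of 2-fold once libraries were corrected for GC content and length (log2 fold changes −0.94, −0.92 and 0.97). The median absolute log2 fold change of the 10 genes was 1.18, beside 0.64 for all tested genes. The 6 alpha chains divided into 3 higher and 3 lower, and the 4 beta chains into 3 higher and 1 lower.

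**Figure D1:**
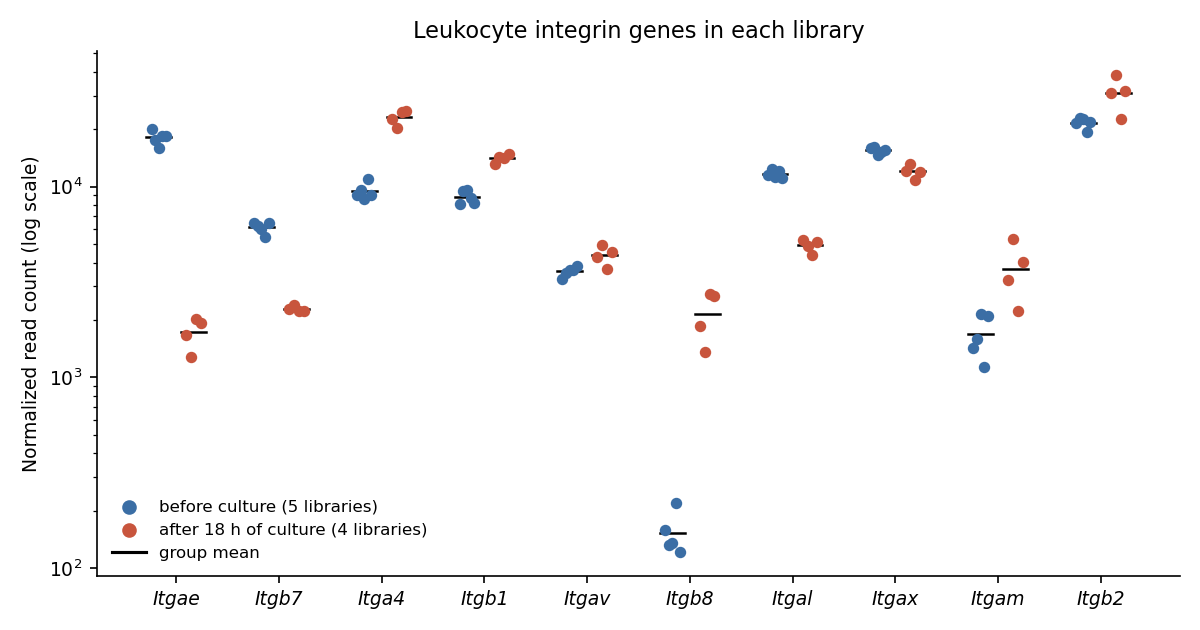
Normalized read count (log scale) of each of the 10 integrin genes in each of the 5 libraries before and 4 libraries after culture, with group means as lines. Itgae runs from 15948 to 20174 before and from 1281 to 2034 after culture, while Itgb8 moves the other way, from 122 to 219 up to 1361 to 2748.

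Itgae (chr11:73090583-73147446, plus strand, GRCm38) encodes the chain by which the cells were selected. Before culture its normalized count was 20174, 17619, 15948, 18534 and 18415 in replicates 1 to 5, and after culture 1670, 1281, 2034 and 1924 in replicates 1 to 4. Every library after culture was below every library before it. The fall was 10.5-fold, a log2 fold change of −3.41 (SE 0.121, 95% interval −3.67 to −3.15, limma adjusted p = 4.45e-11). The exact two-sided permutation test of the means gave p = 0.0159, the smallest this design allows.

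Itgb7 (chr15:102215995-102231944, minus strand), the partner chain of αE, fell with it but by less. It stood at 6461, 6233, 5981, 5458 and 6469 before and at 2282, 2401, 2235 and 2242 after culture. The after-culture libraries lay within a narrow band, with a coefficient of variation of 3.36%, against 19.4% for Itgae in the same libraries. The log2 fold change was −1.42 (SE 0.070, 95% interval −1.57 to −1.26, limma adjusted p = 1.01e-09), an interval that does not meet that of Itgae. The difference between these paired chains was described but not tested.

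Itga4 (chr2:79255426-79333123, plus strand) encodes the other alpha chain that uses β7, in the receptor for MAdCAM-1, and it also forms VLA-4 with β1, the receptor for VCAM-1 and fibronectin. It rose from 9041, 9559, 8651, 10995 and 9102 before to 22525, 20303, 24558 and 25022 after culture, with no overlap. The log2 fold change was 1.29 (SE 0.091, 95% interval 1.09 to 1.48, limma adjusted p = 3.36e-08). Exons of Itga4 overlap 1124 bases of Cerkl exons on the opposite strand. Cerkl read at most 0.511% of Itga4 in any library, and whether counting used strand is not given in the sources used here.

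The pair of alpha chains that share β7 therefore changed places. To set genes side by side, normalized counts were divided by the length of the union of a gene's exons, in kilobases (kb). On that scale Itgae made up 87.2, 84.9, 84.9, 83.7 and 86.1% of the sum of Itgae and Itga4 before culture, and 18.5, 16.1, 20.2 and 19.0% after it. In each library before culture Itgae was the larger, and in each library after culture Itga4 was. With coding length in place of exon length the mean share of Itgae went from 62.9 ± 2.48% (SD, n = 5) to 6.16 ± 0.647% (SD, n = 4), and the same order held in every library. These shares describe transcripts. How much of each receptor reaches the surface is not measured by them.

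Itgb8 (chr12:119158022-119238802, minus strand) encodes the chain that makes αVβ8, which binds latent TGF-β. Its normalized count was 159, 132, 136, 219 and 122 before and 1861, 1361, 2748 and 2675 after culture. The lowest library after culture was above the highest before it. The rise was 14.1-fold, or 3.78 in log2 units (SE 0.211, 95% interval 3.33 to 4.24, limma adjusted p = 3.24e-09). Libraries differed more for Itgb8 than for most members, with a coefficient of variation of 25.5% before and 30.9% after culture.

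Itgav (chr2:83724397-83806916, plus strand), the alpha partner of β8, changed little beside it. It was 3293, 3527, 3675, 3677 and 3818 before and 4296, 4923, 3690 and 4572 after culture, and replicate 3 after culture lay inside the earlier range. The rise of 0.27 (log2, SE 0.086, 95% interval 0.09 to 0.46) passed the test at a limma adjusted p of 0.0117. It did not pass once each library was corrected for its trend over GC content and length (log2 fold change 0.058, limma adjusted p = 0.568). Exons of Itgav overlap 634 bases of Gm13684 exons on the opposite strand. Gm13684 read at most 3.87% of Itgav in any library, and whether counting used strand is not given in the sources used here. Itgav was 25.2 ± 5.93 times Itgb8 per kb of exon before (SD, n = 5) and 2.31 ± 1.03 times after culture (SD, n = 4), so the alpha chain was the more abundant transcript of the pair on that scale in all 9 libraries. With coding length it was so in 8 of 9, the ratio being 0.986 in replicate 3 after culture.

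Itgb2 (chr10:77530252-77565708, plus strand) encodes the common beta chain of LFA-1, Mac-1 and CD11c/CD18. Its normalized count was 21633, 22941, 22733, 19348 and 21854 before and 30819, 38714, 22654 and 31748 after culture. Replicate 3 after culture fell within the range before culture, and the other 3 were above it. The log2 fold change was 0.49 (SE 0.128, 95% interval 0.21 to 0.77, limma adjusted p = 0.00391), and it was 0.37 without replicate 2 after culture and 0.63 without replicate 3.

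The alpha partners of β2 moved in different directions. Itgal (chr7:127296260-127335138, plus strand), the LFA-1 chain that binds ICAM, fell from 11460, 12386, 11296, 12024 and 11109 to 5241, 4914, 4398 and 5157 (log2 fold change −1.24, SE 0.073, limma adjusted p = 5.55e-09). Itgax (chr7:128129547-128150657, plus strand), the CD11c chain, fell less, from 15963, 16067, 14627, 15117 and 15664 to 12116, 13186, 10847 and 11927 (log2 fold change −0.37, SE 0.075, limma adjusted p = 6.84e-04). For neither gene did the groups overlap. The change of Itgax was −0.18 with GC and length correction (limma adjusted p = 0.0209), and with a block by title number added to that correction it did not pass (−0.18, limma adjusted p = 0.0679). Markers of some other cells that carry these chains were lower in the same libraries. The sum of 9 natural killer cell markers, cells rich in αL, was 3148 to 5053 before and 1301 to 1919 after culture, and that of 8 alveolar macrophage markers, cells rich in αX, was 17599 to 26252 and 8582 to 11682. T cells also carry αL, and of their 14 markers 3 were lower, 1 higher and 10 did not pass, with a median log2 fold change of −0.053. The 7 B cell markers had a median of 0.022, with 2 lower and 2 higher. The part of these cells in the fall of Itgal and Itgax was not tested.

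Itgam (chr7:128062640-128118491, plus strand), the Mac-1 chain of macrophages, neutrophils and type 2 conventional dendritic cells, rose. It was 1419, 1581, 2163, 1135 and 2096 before and 3240, 5291, 2218 and 4043 after culture, where replicate 3 stood just above the highest earlier value. The log2 fold change was 1.11 (SE 0.230, 95% interval 0.61 to 1.61, limma adjusted p = 7.64e-04). Of the exon bases of Itgam, 3450 are also exons of Gm49368, a gene on the same strand, and 72.4% of the 50-base windows of the longest Itgam transcript occur in other genes. Its level is therefore uncertain, because the counting rule for shared reads is not given in the sources used here. Gm49368 itself read at most 2.43% of Itgam in any library.

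Itgam and Itgb2 had their extremes in the same libraries as the monocyte and macrophage markers after culture. The summed markers were 31598, 46140, 22077 and 33939 in replicates 1 to 4 after culture. Replicate 2 was the highest and replicate 3 the lowest for the marker sum, for Itgam and for Itgb2 alike. Before culture, replicate 3 was the highest and replicate 4 the lowest for both the marker sum (65744 and 37413) and Itgam (2163 and 1135). The match was looser there, since replicate 5 had the second highest Itgam (2096) with a marker sum of 53941, lower than in 3 other libraries, and Itgb2 was highest in replicate 2 (22941). Between the groups the direction differed, since 6 of the 10 markers were lower and 0 higher after culture in limma (0 also at an unadjusted p under 0.05), while Itgam rose. Itgb8 ran the other way among the libraries after culture, lowest in replicate 2 and highest in replicate 3. The sum of 8 markers of type 2 conventional dendritic cells was also highest in replicate 2 and lowest in replicate 3 after culture (25610 and 15502). Before culture the sum of 8 neutrophil markers was 13643, 16004, 22538, 13106 and 21458 in replicates 1 to 5. Libraries ranked in the same order for Itgam before culture. After culture the neutrophil sum was highest in replicate 4 (14831) and lowest in replicate 3 (6905). For Itgb8, the highest library of each group (replicate 4 before and replicate 3 after culture) was also the highest for the sums of 14 T cell markers (13702 and 13104) and 12 epithelial markers (46363 and 11096). The same libraries were highest for the sums of 9 natural killer cell markers (5053 and 1919) and 7 mast cell and basophil markers (8989 and 10311). Of these 7 only 3 had a mean of at least 10, with 1 higher, 1 lower and 1 that did not pass, so that sum is a weak measure of those cells. Replicate 4 before and replicate 3 after culture share the library-name number 4, as replicate 3 before and replicate 2 after culture share number 3. A match seen in both groups may therefore not be independent, since the sources used here do not say whether such libraries share mice. The part of these cells in the levels of Itgam, Itgb2 and Itgb8 was not tested.

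**Figure D2:**
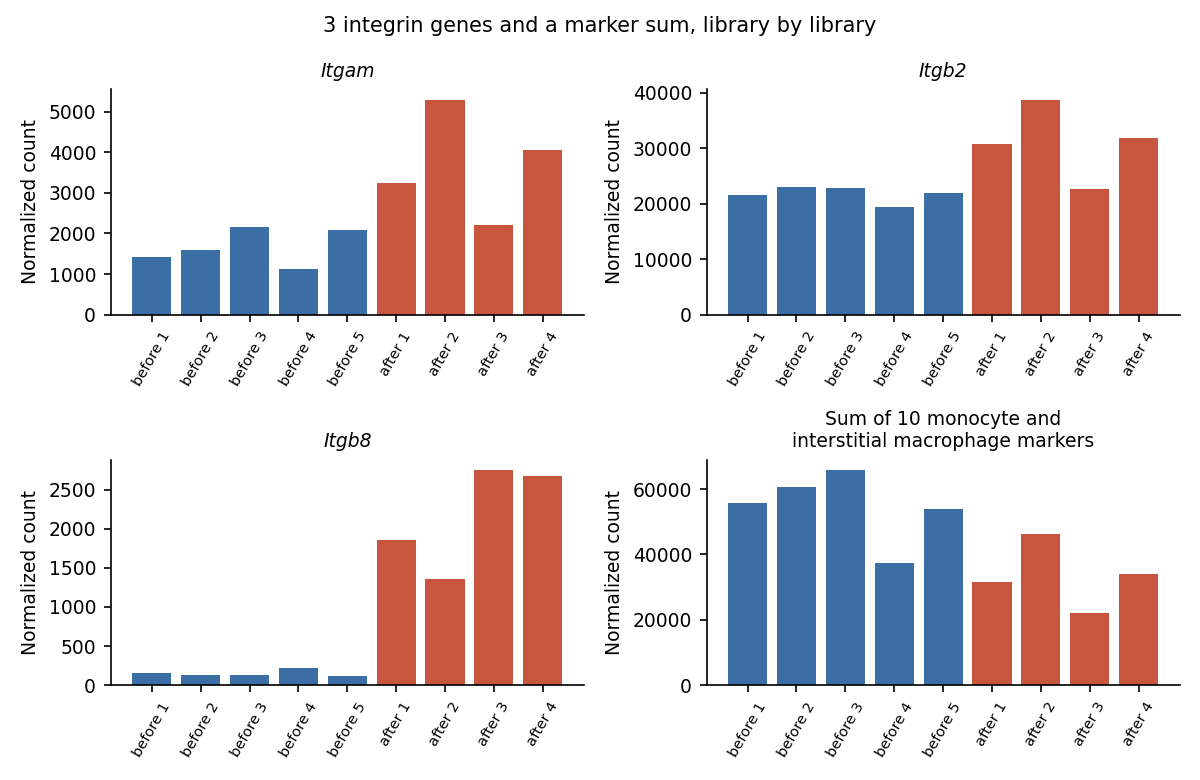
Normalized counts of Itgam, Itgb2 and Itgb8 and the sum of 10 monocyte and interstitial macrophage markers, 1 bar per library (blue before, red after culture, axes from 0). After culture, replicate 2 has the highest Itgam (5291), Itgb2 (38714) and marker sum (46140) and the lowest Itgb8 (1361).

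Itgb1 (chr8:128685654-128733200, plus strand), the most widely shared integrin beta chain and the partner of α4 in VLA-4, rose from 8110, 9484, 9617, 8711 and 8191 to 13155, 14265, 14084 and 14927. No library after culture was as low as any before it. The log2 fold change was 0.68 (SE 0.078, 95% interval 0.51 to 0.85, limma adjusted p = 4.04e-06), and both chains of VLA-4 were thus higher after culture.

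Correction for GC content and length left the direction of all 10 genes as it was and made several changes smaller and others larger. Log2 fold changes became −0.94 for Itgb7, −0.18 for Itgax and 0.43 for Itgb1. Itgb2 rose to 0.73 and Itgam to 1.15, and Itgal (−0.92) and Itga4 (0.97) came closer to 0. Itgb8 came down from 3.78 to 3.42 and Itgae went from −3.41 to −3.24, and they kept the largest changes of the 10 genes.

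**Figure D3:**
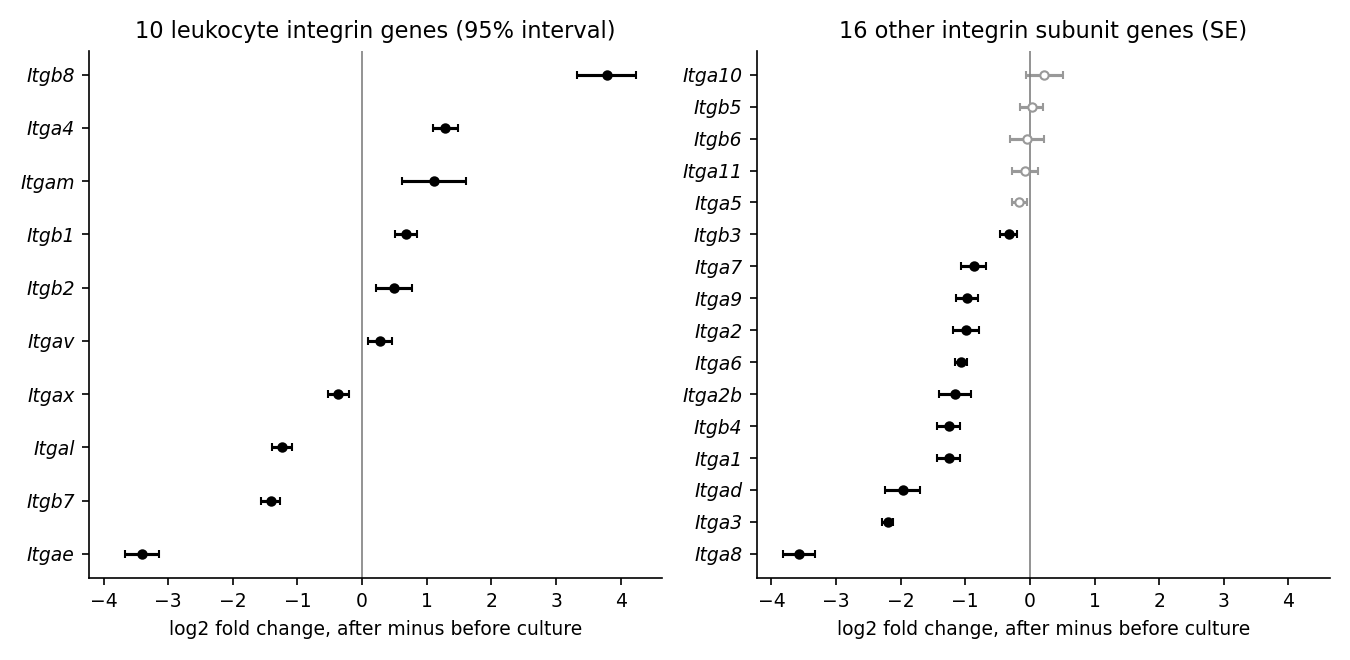
Log2 fold change, after minus before culture, of the 10 leukocyte integrin genes with 95% intervals (left) and of the 16 other integrin subunit genes with standard errors (right). Filled points passed a limma adjusted p of 0.05. The 10 genes run from −3.41 (Itgae) to 3.78 (Itgb8), and no filled point on the right lies above 0.

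The order of the 10 genes by normalized count per kb of exon shows how the set was rearranged. Before culture Itgb2 led with 7111 per kb, followed by Itgae with 3959, Itgax with 3225, Itgb7 with 2210, Itgb1 with 2162, Itgal with 1774, Itga4 with 677, Itgav with 335, Itgam with 334 and Itgb8 with 13.9. In that order the ranges of Itgb7 and Itgb1, and of Itgav and Itgam, overlapped, and every other pair of neighbours was separate. After culture the level per kb was 10152 for Itgb2, 3457 for Itgb1, 2502 for Itgax, 1653 for Itga4, 827 for Itgb7, 750 for Itgal, 736 for Itgam, 407 for Itgav, 377 for Itgae and 195 for Itgb8. Ranges overlapped from Itgal to Itgam, from Itgam to Itgav and from Itgav to Itgae. Itgae thus went from the place 2 of 10 to place 9 of 10, and to place 10 with coding length. For Itgam the exons left free by Gm49368 give 2349 per kb after culture, place 4 of 10, so its place depends on how shared reads were counted.

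**Figure D4:**
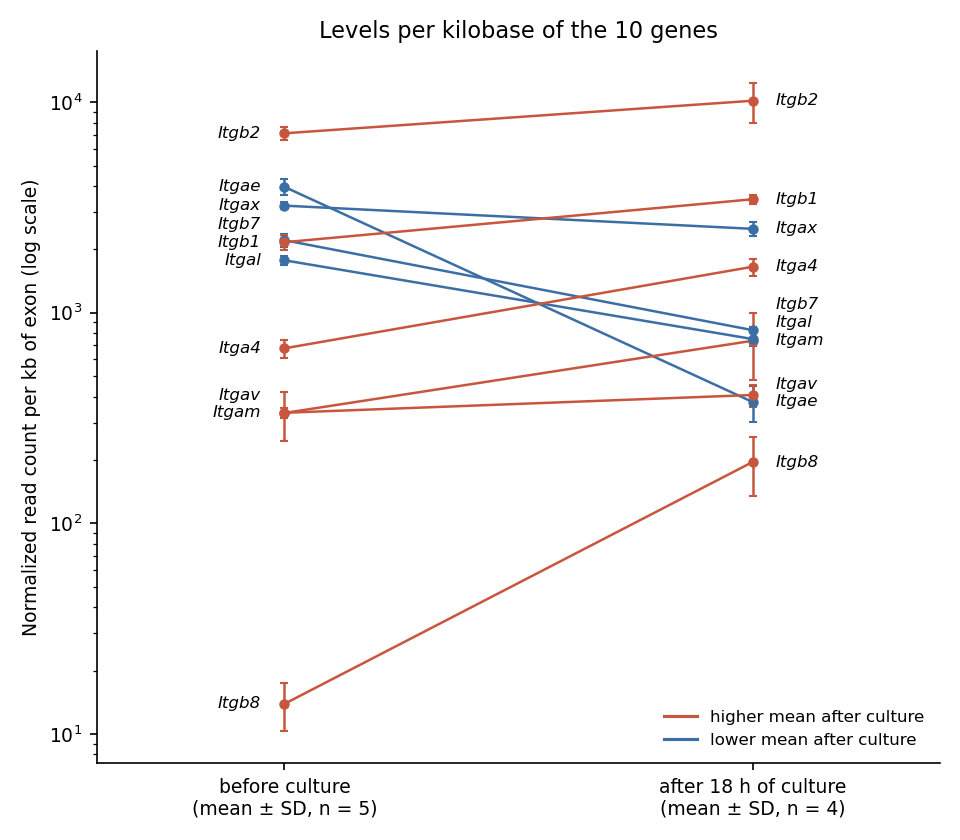
Mean normalized read count per kb of exon (log scale, error bars SD) of the 10 genes before (n = 5) and after culture (n = 4). The line of Itgae passes below those of 7 other genes on its way from 3959 to 377, and Itgb2 is the highest at both ends.

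Ratios of an alpha to a beta chain within a library do not depend on the scaling between libraries. For 8 textbook pairs the ratio per kb of exon was computed in each library, as a description with no test. Itgae to Itgb7 went from 1.89, 1.71, 1.61, 2.05 and 1.72 to 0.443, 0.322, 0.551 and 0.519, a 3.98-fold fall of the ratio. Before culture αE was the more abundant chain of its pair, and after culture β7 was. Itga4 to Itgb7 went the opposite way, from 0.277 to 0.399 up to 1.68 to 2.21, which is 6.51-fold higher. A fixed length cancels from that fold, so every length gives the same fold. The crossing of 1 depends on the length, since with coding length Itga4 to Itgb7 was 1.09 to 1.57 already before culture. Ratios were not computed under GC and length correction. There the log2 fold changes were smaller, 0.97 for Itga4 and −0.94 for Itgb7 in place of 1.29 and −1.42.

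Among the partners of β2, the ratio to Itgb2 was 3.33-fold lower for Itgal, 1.81-fold lower for Itgax and 1.54-fold higher for Itgam. Itgax made up 60.5 ± 1.25% of the summed level per kb of the 3 alpha chains before (SD, n = 5) and 63.0 ± 3.03% after culture (SD, n = 4), with overlapping ranges. Itgal went from 31.5 to 35.2% of that sum down to 16.5 to 20.1%, and Itgam from 4.34 to 8.29% up to 13.1 to 23.2%, with no overlap. On exons that no other gene overlaps, the share of Itgam was 17.5 ± 4.14% before and 41.0 ± 7.15% after culture, higher at both ends with the same direction. The mean share of Itgax went the other way there, from 53.2 ± 2.50% to 45.4 ± 5.28%, with overlapping ranges (49.6 to 55.7% and 40.0 to 52.1%). For the partners of β1, the ratio to Itgb1 was 1.52-fold higher for Itga4 and 1.32-fold lower for Itgav.

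**Figure D5:**
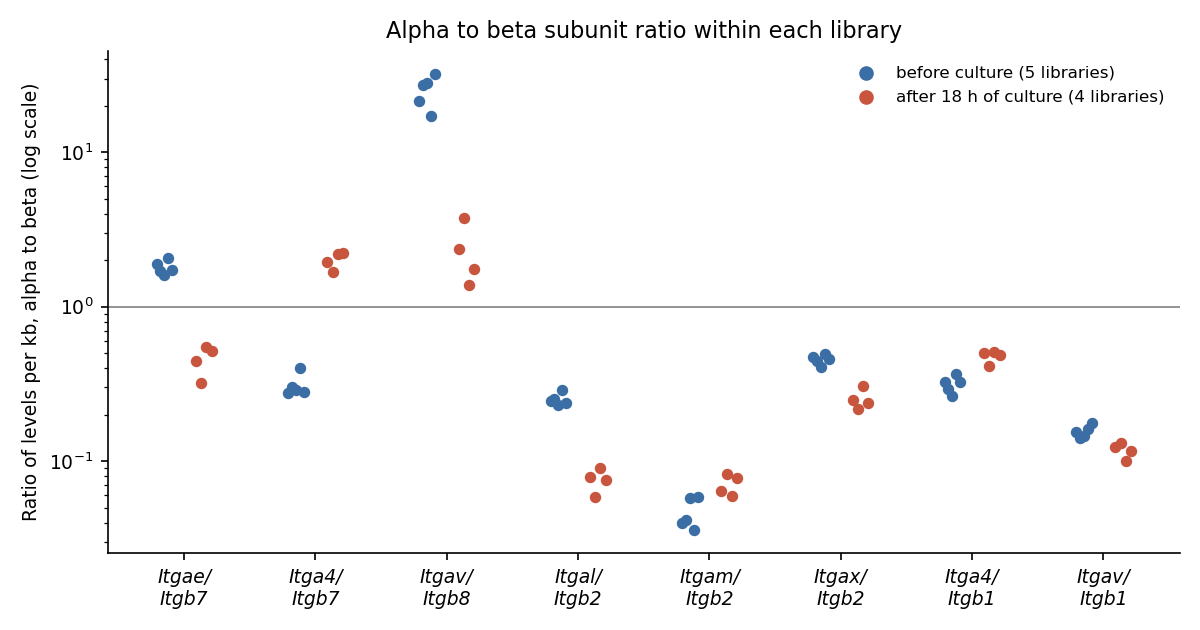
Ratio of levels per kb of exon, alpha to beta chain, in each library for 8 pairs (log scale, line at 1). Itgae/Itgb7 falls from above 1 to below 1 and Itga4/Itgb7 rises from below 1 to above 1, while Itgav/Itgb8 falls from 17.3 to 32.3 down to 1.38 to 3.72. With coding length, which is not drawn, Itga4/Itgb7 is above 1 in both groups.

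Members of one beta family lie near each other in the genome yet moved apart, and their upstream sequences are shown for that reason. Itgam ends and Itgax begins on chromosome 7 with both on the plus strand, Itgam being higher and Itgax lower after culture. Itgb8 and Itgb7 are shown as the beta chains with the largest rise and the only fall. RefSeq sequences (GRCm38.p6) were matched for 7 of the 10 genes, and the 250 bases before the RefSeq start are printed 5′ to 3′ on the gene's strand. For Itgb8 this window lies wholly inside the gene as placed by GENCODE (chr12:119158022-119238802), so it is not upstream of the GENCODE start. Capitals mark matches, on either strand, to the motif letters TGTGGT (bound by RUNX factors), GAGGAA (PU.1), TGANTCA (AP-1), the κB consensus (NF-κB) and GTCTAGAC (SMAD).
Itgam, chr7:128062390-128062639, plus strand: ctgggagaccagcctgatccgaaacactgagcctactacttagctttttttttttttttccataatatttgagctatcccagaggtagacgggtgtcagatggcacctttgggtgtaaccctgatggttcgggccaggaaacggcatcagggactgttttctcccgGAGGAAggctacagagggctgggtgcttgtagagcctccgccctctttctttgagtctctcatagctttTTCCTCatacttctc
Itgax, chr7:128129300-128129549, plus strand: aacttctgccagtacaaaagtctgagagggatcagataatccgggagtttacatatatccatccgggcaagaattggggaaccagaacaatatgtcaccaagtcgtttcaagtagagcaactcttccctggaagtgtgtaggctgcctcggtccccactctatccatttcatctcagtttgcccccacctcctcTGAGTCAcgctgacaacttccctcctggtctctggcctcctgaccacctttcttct
Itgb8, chr12:119238277-119238526, minus strand: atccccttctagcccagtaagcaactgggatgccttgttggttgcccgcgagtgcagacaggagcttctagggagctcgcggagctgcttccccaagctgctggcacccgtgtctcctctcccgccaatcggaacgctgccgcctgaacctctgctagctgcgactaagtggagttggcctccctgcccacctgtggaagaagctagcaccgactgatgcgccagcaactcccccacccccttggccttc
Itgb7, chr15:102231936-102232185, minus strand: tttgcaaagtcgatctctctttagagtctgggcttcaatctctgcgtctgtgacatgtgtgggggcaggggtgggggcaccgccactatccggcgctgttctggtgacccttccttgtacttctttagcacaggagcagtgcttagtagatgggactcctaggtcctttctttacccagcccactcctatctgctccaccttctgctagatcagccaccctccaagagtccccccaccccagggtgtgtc
The window of Itgam holds GAGGAA at −84 to −79 from the start and its reverse complement at −15 to −10. The window of Itgax holds TGAGTCA at −56 to −50. Neither Itgb8 nor Itgb7 holds any of the 5 motifs in these windows, and no matches overlapped. Bases before the GENCODE start of Itgb8 were not searched. Of 32851 such windows in the genome, 23.3% hold GAGGAA, 14.0% TGTGGT, 6.75% TGANTCA, 0.356% the κB consensus and 0.167% GTCTAGAC. A match describes letters only.

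The other integrin subunits were lower or did not pass the test. All 16 had a mean of at least 10, and in limma 11 were lower, 0 were higher (0 also at an unadjusted p under 0.05, with edgeR and with DESeq2) and 5 did not pass, with a median log2 fold change of −0.98 beside 0.0065 for all tested genes. Itga3, a laminin receptor chain, went from 2355 ± 176 (SD, n = 5) to 513 ± 47.3 (SD, n = 4), and Itga6, another laminin receptor chain, from 3063 ± 289 to 1465 ± 189. Itga8, a chain of mesenchymal cells, went from 528 ± 175 to 43.8 ± 15.2, and Itgad, the fourth alpha partner of β2, from 44.5 ± 11.1 to 10.6 ± 2.75. Itga5, the fibronectin receptor chain (5473 ± 694 against 4904 ± 795), and Itgb5 (3027 ± 708 against 3071 ± 701) did not pass. With GC and length correction 9 were lower and 2 higher, namely Itga5 (log2 fold change 0.34) and Itgb5 (0.46), while Itga7 and Itgb3 no longer passed. Markers of structural lung cells fell in the same libraries, from sums of 24569 to 35764 down to 3286 to 4320 for 8 endothelial genes and from 15861 to 28871 down to 2319 to 4588 for 8 fibroblast genes. Their part in the fall of these subunits was not tested.

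Genes that link integrins to actin or switch them on were counted as a list of 27, of which 26 were tested. After culture 16 were lower and 4 higher, with a median log2 fold change of −0.51. Among all tested genes 34.6% were lower and 34.2% higher, with a median of 0.0065. Parvg, the leukocyte parvin, went from 3861 ± 385 to 1121 ± 95.5, and Rassf5, a Rap1 effector that acts on LFA-1, from 4871 ± 307 to 2151 ± 137. Ptk2b, the kinase Pyk2, went from 6766 ± 186 to 4381 ± 318. The 4 higher genes were Stk4, the kinase partner of Rassf5 (6338 ± 196 against 14239 ± 676), Lims1 (3584 ± 220 against 5338 ± 536), Cd47 (11178 ± 552 against 15257 ± 1184) and Ilk (465 ± 44.0 against 600 ± 41.5). With GC and length correction 14 were lower and 3 higher, but not the same genes. Among the lower genes, Rap1a (log2 fold change −0.56), Rap1b (−0.47) and Apbb1ip (−0.47) were new. Tln1, which encodes talin, no longer passed (0.078, limma adjusted p = 0.404), nor did Fermt3, Parvb, Pxn and Cyth1. Stk4 and Ilk stayed higher and Sharpin (0.16) joined them, while Lims1 (0.12, limma adjusted p = 0.178) and Cd47 (0.11, limma adjusted p = 0.0994) no longer passed.

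Of 20 integrin ligands 14 were tested, with 10 lower, 1 higher and a median log2 fold change of −0.68. Among all tested genes 34.6% were lower and 34.2% higher, with a median of 0.0065. Cdh1, the E-cadherin that αEβ7 binds, fell 9.28-fold, from 6470, 5781, 6969, 5303 and 6695 to 677, 747, 689 and 579. Jam2 went from 447 ± 75.6 to 75.4 ± 21.6 and F11r, a ligand of LFA-1, from 3530 ± 209 to 1914 ± 124. Tnc, the matrix protein tenascin C, was the 1 higher gene, at 1492 ± 401 before and 5180 ± 1491 after culture. Epcam, an epithelial marker, was 1067 ± 158 before and 298 ± 22.0 after culture. Of 12 epithelial markers, Cdh1 among them, 9 were lower and 1 higher. Before culture their sum was highest in replicate 4 (46363), the library with the lowest Cdh1 (5303). The part of epithelial RNA in the fall of Cdh1 was not tested.

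The last list held 20 genes of latent TGF-β release, TGF-β signalling and the RUNX factors known to act on Itgae. Of these 14 were lower and 1 higher (median log2 fold change −0.69), beside 34.6% lower and 34.2% higher among all tested genes (median 0.0065). Runx3, a factor needed for CD103 in T cells, was 9523, 8290, 8372, 6257 and 9389 before and 2359, 2465, 2400 and 2286 after culture. The log2 fold change of Runx3 was −1.80 (SE 0.108, limma adjusted p = 6.42e-09). Smad7, a feedback inhibitor of TGF-β signalling, went from 4463 ± 350 to 1623 ± 177, Ltbp4, a latent TGF-β binding protein, from 1515 ± 281 to 178 ± 57.7, and Tgfbr3 from 940 ± 159 to 267 ± 25.5. The 1 higher gene was Tgfbr1 (4750 ± 297 against 5774 ± 552), whose log2 fold change of 0.28 became −0.10 with GC and length correction, where Ltbp2 (0.51) and Smad3 (0.29) were higher instead. Itgb8 thus rose in libraries where Tgfb1 (12701 ± 1515 against 6508 ± 1389) and Lrrc32, which holds latent TGF-β on the surface (1385 ± 114 against 687 ± 194), were lower. Tgfb2, which did not pass in the main fit, was higher under TMM scaling (log2 fold change 0.38, limma adjusted p = 0.0399). It was also higher under upper quartile (0.46, limma adjusted p = 0.0161) and quantile scaling (0.56, limma adjusted p = 0.00373), and with DESeq2 (0.32, DESeq2 adjusted p = 0.0491). The part of structural lung cells in the changes of this list was not tested.

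Genes whose profile over the 9 libraries was most like that of Itgae were sought among 11778 tested genes with a mean of at least 100, by the root mean square difference of centred log2 values. The 5 nearest were Btla (0.108), 9930022D16Rik (0.161), Ffar4 (0.163), Gpr4 (0.168) and Spag5 (0.171), with Pearson r from 0.996 to 0.999. Btla, an inhibitory receptor of lymphocytes and dendritic cells, went from 4259 ± 413 to 441 ± 92.7, a log2 fold change of −3.29. These likenesses rest mainly on the step between the groups, which the libraries share.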

How the data were processed

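Integrin genes were measured by RNA sequencing in 5 libraries before and 4 libraries after culture. The authors deposited 1 table of normalized counts per gene, a non-negative signal on a linear scale. DESeq2 and the build GRCm38 are named in the submitters' processing notes, while aligner, counter, strandedness and annotation are not given in the sources used here. All values (100%, tolerance 0.001) were whole multiples of 1 step per library, which gave whole reads. The 3782 rows with no symbol (3.87 to 10.9% of reads) were left out. No 2 libraries of a group were repeats of each other (16 pairs, chi-square of the reads divided by degrees of freedom 7.02 to 66.9).

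Genes with a mean of at least 10 were fitted with limma 3.58.1 in R 4.3.3 on log2(value + 1), group as the only term, two-sided, with Benjamini-Hochberg adjustment over all 18202 tested genes. Such fold changes understate those of low genes, and a fold printed without log2 is a ratio of group means. Alternatives used edgeR 4.0.16 and DESeq2 1.42.0 on recovered reads, with other pseudocounts, filters and scalings, a replicate block, a spline correction for GC content and length, and each library left out. The group means of Itgae alone were compared by exact permutation (SciPy 1.17.1). Lengths, coordinates and overlaps came from GENCODE M21 (GRCm38). Scripts were tested on simulated counts.

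Members, lists and motifs were chosen with earlier results of these data known. Named genes are the 10 members, the other integrin subunits, up to 4 list genes with the smallest adjusted p and up to 3 against their list's direction, the nearest profiles to Itgae, and fixed cell type markers. Tgfb1, Tgfb2 and Lrrc32 lie outside that rule, as do the genes named for overlapping exons (Cerkl, Gm13684 and Gm49368). Ilk, Sharpin, Ltbp2, Smad3 and Mmp8 lie outside it too, as do Rap1a, Rap1b, Apbb1ip, Tln1, Fermt3, Parvb, Pxn and Cyth1. All of these were chosen after their values were seen.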

Additional observations from a re-analysis of the deposited data

Results flagged for a closer look

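In 36 sets of values (10 genes and 8 ratios, each in both groups) 1 library stood apart from the rest of its group by Dixon's test, where chance flags about 1 set in 20. The ratio of Itga4 to Itgb7 per kb of exon was 0.399 in replicate 4 before culture and 0.277 to 0.304 in the other 4 libraries. That library had the highest Itga4 (10995) and the lowest Itgb7 (5458) of its group. It also had the lowest sum of monocyte and macrophage markers (37413) and the highest sum of T cell markers (13702), and their part in the ratio was not tested.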

How the results depend on the processing

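Over 23 distinct alternative settings, 226 of 230 log2 fold changes of the 10 genes kept their direction and side of the threshold, 4 lost the call and 0 reversed. Those 4 were Itgav under GC and length correction (0.058), also with a replicate block by title number (0.089) or by library number (0.051), and Itgax under the correction with the block by title number (−0.18). The cause was not tested. The count of higher genes among other integrin subunits was 2 under that correction, 1 with the title block and 2 with the library block, in place of 0. For the adaptors it was 2 with either block, in place of 4. In the TGF-β list it was 3 under TMM, upper quartile or quantile scaling and 2 under DESeq2 or the correction with or without a block, in place of 1, and 1 to 2 when a library was left out. Upper quartile scaling moved the median of all tested genes by more than 0.1, to 0.117 (log2).

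Title numbers and library-name numbers are shared between groups, and neither pairs the samples by the rule used. Same-numbered libraries correlated in their deviations at −0.213 to 0.0807 by title and at 0.0447 to 0.349 by library name, where 7 of 8 libraries correlated best with their own number, a hint from the data only. A fit with a replicate block keeps 4 libraries a group, dropping replicate 5 before culture by title and replicate 2 before culture by library name. With the block 11656 (title) and 12865 (library name) genes passed, against 12123 and 11949 in the same libraries without it (the fits that leave out those replicates). Itgae stood at −3.40 and −3.42, and the block alone changed no call of the 10 genes. The correction with the library block, coding length for the ratios and the lengths free of overlap were chosen after seeing the data.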

Other observations

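Platelet transcripts moved in different directions. Itga2b, the platelet αIIb chain, was 104 to 156 before and 30.3 to 81.0 after culture, and Gp9, another platelet surface gene, named after its values were seen, was 74.9 ± 21.8 and 31.3 ± 18.3 (SD, n = 5 and n = 4). The platelet chemokine Pf4 was instead 62.5 ± 30.6 before and 579 ± 358 after culture, with 1113 in replicate 2 and 355 to 426 in the other 3 libraries. Replicate 2 was also the library with the highest macrophage marker sum.

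The summed normalized count of the 10 integrin genes ran from 94828 to 99531 before and from 89465 to 106639 after culture. The total thus overlapped between the groups while 8 of the 10 genes did not, beside 57.3% of all tested genes that did not.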
